A study of Mus musculus with 4 samples.

Results

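Prdm16+ Aire-high cells were 291 of the 10297 cells of mesenteric lymph node that passed the cell filters. They were chosen by a pair of transcripts, with at least 500 CPM (UMIs of a gene per 1000000 UMIs of the cell) of Prdm16 and at least 150 CPM of Aire, and with at most 1 UMI of Cd3e and Cd3d together. A UMI (unique molecular identifier) stands for 1 counted molecule. The hCD2+ sort held 278 of these cells among 5964 and the hCD2- sort 13 among 4333. In the hCD2+ sort, where all main tests between cell groups were made, each of the 12 mice gave 11 to 35 of them.

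All cells came from untreated Gm38411-iCre-hCD2 R26 tdTomato mice aged 15 days, in which the Gm38411 cassette carries Cre and a human CD2 reporter and Cre labels cells and their descendants with tdTomato. CD11c+ MHC-II+ cells without CD3 and B220 and with tdTomato were sorted into an hCD2+ and an hCD2- fraction. The cells of each of 12 mice carried their own hashtag antibody, and each fraction was sequenced as 1 library, so that the fraction and the library cannot be told apart. Every group described carries these alleles, and the 12 mice are the replicates.

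Aire is a nuclear protein that in medullary epithelial cells of the thymus switches on genes of other tissues, so that developing T cells that recognise self are deleted or become regulatory T cells. Outside the thymus, Aire is found in rare antigen-presenting cells of lymph nodes. Some antigen-presenting cells of gut-draining lymph nodes are known for inducing peripheral regulatory T cells to gut microbes and food, for which integrin alpha-v beta-8, which activates TGF-beta, has been named. Prdm16 is a zinc finger regulator of transcription, and CCR7 guides dendritic cells into the T cell zone of a lymph node.

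In all, 178129025 UMIs were counted for the hCD2+ sort (8801 called cells) and 150904166 for the hCD2- sort (5603), with medians of 19202 and 25587 UMIs per filtered cell. The Prdm16+ Aire-high cells of the hCD2+ library had a median of 26986.5 UMIs and 4974 genes, so that 1 UMI was worth about 37.1 CPM in a cell of median depth. The libraries shared 7 cell barcodes, of which 0 had the same hashtag in both and 0 were Prdm16+ Aire-high. Droplets of 10 to 100 UMIs of the hCD2+ library, a measure of free RNA, held 67.9 CPM of Aire and 321 CPM of Prdm16.

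Both transcripts used for the choice were above 1 molecule in most of the cells. The thresholds in part set this, so that it describes the cells and is no support for the choice. The median Prdm16+ Aire-high cell of the hCD2+ sort held 545 CPM (14 UMIs) of Aire and 1432 CPM (36 UMIs) of Prdm16. Only 3 of the 278 cells passed with 1 Aire UMI and 4 with 2. The lowest Aire level inside the gate was 151 CPM and the highest outside it, among cells with enough Prdm16, was 147 CPM. Between 150 and 300 CPM of Aire lay 61 of the cells, 217 lay above 300 CPM, and 38 cells lay just outside at 100 to 150 CPM. For Prdm16 the neighbours of the threshold were 520 CPM inside and 498 CPM outside, with 89 cells at 500 to 1000 CPM inside and 67 cells at 100 to 500 CPM outside. Aire thus had no gap at its threshold, and the cells are a range of a continuous distribution.

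**Figure D1:**
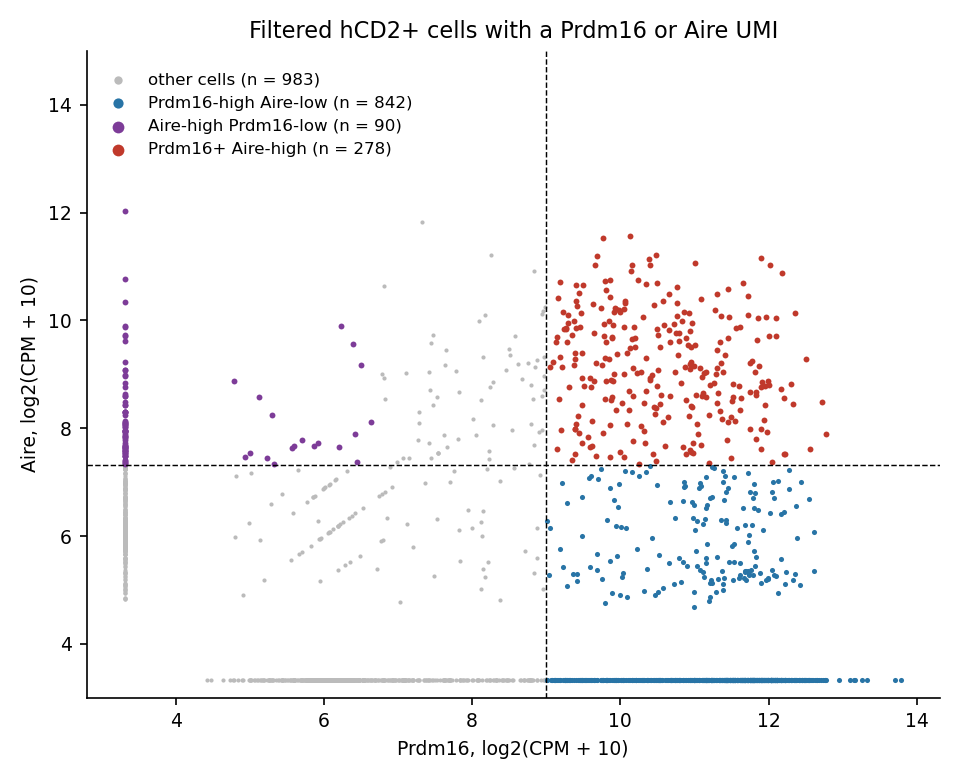
Each point is a filtered hCD2+ cell with a UMI of Prdm16 (x axis) or Aire (y axis), both as log2(CPM + 10), with the thresholds as dashed lines. The 278 Prdm16+ Aire-high cells fill the upper right, next to 842 Prdm16-high Aire-low cells below them and 90 Aire-high Prdm16-low cells to their left.

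The cells carried the transcripts of antigen-presenting cells and of the CCR7 program, and almost no Itgax. Of 8 antigen-presenting cell markers 7 reached a mean of 10 CPM, among them H2-Aa at 4787 to 6160.0 CPM (median 5380.1), Cd74 at 6666 to 8481 CPM (median 7453) and Zbtb46, a transcription factor of dendritic cells, at 239.8 to 382 CPM (median 283). The eighth was Itgax, which encodes the CD11c of the sort and stood at 0 to 27.9 CPM (median 3.59). Of 10 markers of CCR7 migratory dendritic cells 9 reached 10 CPM, with a summed level of 5482 to 8197 CPM (median 6744) that includes Ccr7 itself. Ccl22, also of this list, was near 0 in the Prdm16+ Aire-high cells and far below the other Ccr7-high groups, with values given below. Among groups described below, the sum was 11183 to 16676 CPM (median 13413) in Ccr7+ Fscn1+ cells. It was 7373 to 10630 CPM (median 8814) in Prdm16-high Aire-low Ccr7-high cells. In the Prdm16-high Aire-low Ccr7-low cells it was 644 to 1174 CPM (median 818), although 8 of the 10 markers reached 10 CPM there. Ccr7 and Fscn1 are both in this list. They chose the Ccr7+ Fscn1+ cells, and Ccr7 split the Aire-low cells, so that the order of these sums is partly set by the choice.

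Markers of other cell types were partly present. Of 10 markers of type 3 innate lymphoid cells 6 reached 10 CPM, led by Il7r at 332 to 603 CPM (median 471) and Il23r at 75.6 to 258 CPM (median 182), while Il17a and Ncr1 were at 0. The list summed to 567 to 895 CPM (median 786). Of 14 epithelial markers 4 reached 10 CPM, namely Epcam at 234 ± 63.7 CPM, Trp63 at 112 ± 44.0 CPM, Krt8 at 53.4 ± 13.6 CPM and Cldn7 at 34.5 ± 13.3 CPM (SD, n = 12), while Krt5, Krt14, Cldn3, Cldn4, Psmb11 and Fezf2 were at 0. The epithelial sum was 353 to 606 CPM (median 428).

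Conventional and plasmacytoid dendritic cell markers gave a mixed picture. Of 8 cDC1 markers 4 reached 10 CPM (summed 1001 to 1347 CPM), with Batf3 and Irf8 high but Xcr1 at 1.26 CPM and Clec9a at 7.75 CPM. Of 8 cDC2 markers 4 did (110 to 269 CPM), and of 8 plasmacytoid markers 3 did (1441 to 2424 CPM), namely Bst2, Tcf4 and Runx2, with Klk1 and Cox6a2 at 0. No T cell marker reached 10 CPM (0 of 8, summed 2.82 to 19.4 CPM, Cd3g at 0) and none of NK cells or group 1 innate lymphoid cells (0 of 8, 0 to 3.32 CPM) or of stroma did (0 of 7, 4.33 to 40.9 CPM). Of 7 B cell markers Ighm and Ebf1 did (summed 55.5 to 227 CPM), where free RNA of the library held 68.2 CPM of Ighm. Of 8 macrophage markers Lyz2 did, with a list sum of 0 to 317 CPM and a median of 3.22 CPM, and Ly6c2 was at 0. What these transcripts contribute to the comparisons was not tested.

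Almost all Prdm16+ Aire-high cells were in the hCD2+ sort. They made up 3.07% to 7.02% (median 4.52%) of the filtered hCD2+ cells of a mouse and 0% to 1.03% (median 0.316%) of its hCD2- cells. The lowest hCD2+ share was above the highest hCD2- share, so that the fractions did not overlap. The means were 4.67% ± 1.35 and 0.310% ± 0.278 (SD, n = 12 mice), with the hCD2+ share higher in 12 of 12 mice (two-sided permutation test, p = 2e-05, the smallest that 100000 permutations can give). With signs flipped within mice the exact permutation p was 0.000488.

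**Figure D2:**
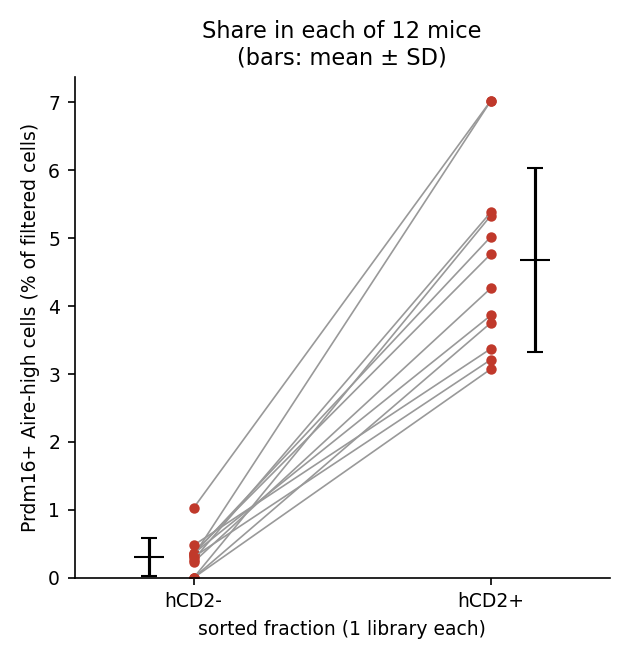
Share of Prdm16+ Aire-high cells among the filtered cells of each mouse in the hCD2- and the hCD2+ sort (percent; points joined by mouse, bars mean ± SD over 12 mice). Every line rises, from at most 1.03% to at least 3.07%.

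Among cells with at least 500 CPM of Prdm16, those with Aire at or above the gate were a minority in the hCD2+ sort. They were 278 of 1120 such cells (24.8%, 95% exact binomial interval 22.3% to 27.5%), and 665 of the 1120 had 0 Aire UMIs. In the hCD2- sort they were 13 of 25 (52.0%, 31.3% to 72.2%). The intervals cover counting error only.

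The 4 further genes given as markers of these cells were high in them, and their levels are given as a description without a test. For reference, the other Prdm16-high cells were split by Ccr7, after the data were seen, into 469 Aire-low Ccr7-low cells (under 300 CPM of Ccr7) and 222 Aire-low Ccr7-high cells (1000 CPM or more). The groups without Prdm16 (under 100 CPM) were 525 Ccr7+ Fscn1+ cells, with the profile of migratory dendritic cells and under 150 CPM of Aire, and 90 Aire-high Prdm16-low cells. Only mice with at least 10 cells entered, which left 12 mice in each group but the Aire-low Ccr7-high cells (10 mice) and the Aire-high Prdm16-low cells (4 mice). Median UMIs per cell were 34988, 34119.5, 31878 and 20222 in these groups.

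Phf24, a PHD finger gene at chr4:42916660-42944752, plus strand (mm10), was at 31.0 to 129.9 CPM (median 78.1) in the Prdm16+ Aire-high cells. It was at 0 to 1.84 CPM (median 0.204) in the Aire-low Ccr7-low, 2.24 to 32.4 CPM (median 6.74) in the Aire-low Ccr7-high, 6.46 to 32.2 CPM (median 18.5) in the Ccr7+ Fscn1+ and 7.87 to 77.1 CPM (median 39.8) in the Aire-high Prdm16-low cells. The Aire-low Ccr7-low cells stood apart, and the highest mouse of each of the other 3 groups reached the lowest Prdm16+ Aire-high mouse. Tnnt2, which encodes cardiac troponin T (chr1:135836354-135852260, plus strand), was at 88.8 to 201 CPM (median 159.8) in the Prdm16+ Aire-high cells. It was at 0 to 2.76 CPM (median 0.306), 42.3 to 68.6 CPM (median 59.1), 15.3 to 42.0 CPM (median 30.2) and 0 to 10.2 CPM (median 5.97) in the other groups, in the same order, and no mouse of them reached the Prdm16+ Aire-high range.

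Aqp4, a water channel of astrocytes, was at 17.3 to 59.4 CPM (median 44.5) and reached at most 6.48 CPM in a mouse of the other 4 groups, without overlap. Ccr7 was at 1335 to 2097 CPM (median 1665) in the Prdm16+ Aire-high cells, against 1842 to 2631 CPM (median 2089.5) in the Ccr7+ Fscn1+ cells, which were chosen for Ccr7. The Aire-low Ccr7-high cells, also chosen for Ccr7, were at 2124 to 2856 CPM, above every Prdm16+ Aire-high mouse. The Aire-low Ccr7-low cells were at 35.8 to 86.2 CPM. Since the Prdm16+ Aire-high cells were not chosen by Ccr7, their level of it is not matched to that of the Ccr7-high groups. In the Aire-high Prdm16-low cells Ccr7 was at 219 to 863 CPM (median 255).

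The given markers were not found in every Prdm16+ Aire-high cell. A UMI of Phf24 was in 57.2%, of Tnnt2 in 78.1% and of Aqp4 in 33.1% of the 278 cells, against 24.9%, 39.8% and 0.952% of Ccr7+ Fscn1+ cells at the higher median depth of 31878 UMIs. After thinning each cell to 5000 UMIs the shares were 25.5%, 44.6% and 13.7% against 8.0%, 10.9% and 0.381%. Of the 278 cells 76 held UMIs of all 3 genes and 39 of none.

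The Prdm16-high cells of the hCD2+ sort were also followed by Aire level, in 6 steps from 0 UMIs to 1200 CPM and more. The means below are over the mice with cells in a step, the steps above 150 CPM are the Prdm16+ Aire-high cells, and no test was made. Nlrc5, the transactivator of MHC class I genes (chr8:94434356-94527272, plus strand), was at 149 ± 38.6 CPM (SD) in cells without an Aire UMI, 306 ± 129 CPM below the gate, and 746 ± 271 CPM, 827 ± 176 CPM, 1091 ± 274 CPM and 1391 ± 301 CPM in the 4 steps inside it. Each step mean was above the one before. Il7r, the interleukin-7 receptor, went from 89.4 ± 25.5 CPM at 0 UMIs over 351 ± 105 CPM just inside the gate to 544 ± 189.9 CPM at 600 to 1200 CPM, and was at 507 ± 125 CPM in the highest step.

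Genes of the cells without Aire had the opposite order. Itgax was at 125 ± 23.9 CPM in cells without an Aire UMI, 38.9 ± 18.4 CPM below the gate and 1.42 ± 3.48 CPM in the highest step. Pigr, the receptor that carries IgA across epithelia, was at 122 ± 30.0 CPM, 52.4 ± 33.7 CPM and 1.36 ± 3.32 CPM in the same steps. Cells just inside the gate (150 to 300 CPM of Aire) still held 15.9 ± 27.3 CPM of Itgax and 15.2 ± 19.6 CPM of Pigr.

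Itgb8, the beta-8 integrin chain, had no such order over the 6 steps. Its means were 209 ± 129 CPM at 0 UMIs and 247 ± 228 CPM below the gate. Inside the gate they were 148 ± 112 CPM, 124 ± 76.3 CPM, 198 ± 124 CPM and 267 ± 157 CPM, with SDs that overlap. The mean at 300 to 600 CPM of Aire was below that of the step before. Those at 600 to 1200 CPM and in the highest step were each above the one before. The steps held 665, 177, 61, 92, 85 and 40 cells of 12, 12, 9, 12, 11 and 6 mice, and the median UMIs per cell fell across them from 34881 to 22553.5. The steps are set in CPM, so that depth enters the grouping, and the part of depth in these values was not tested.

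**Figure D3:**
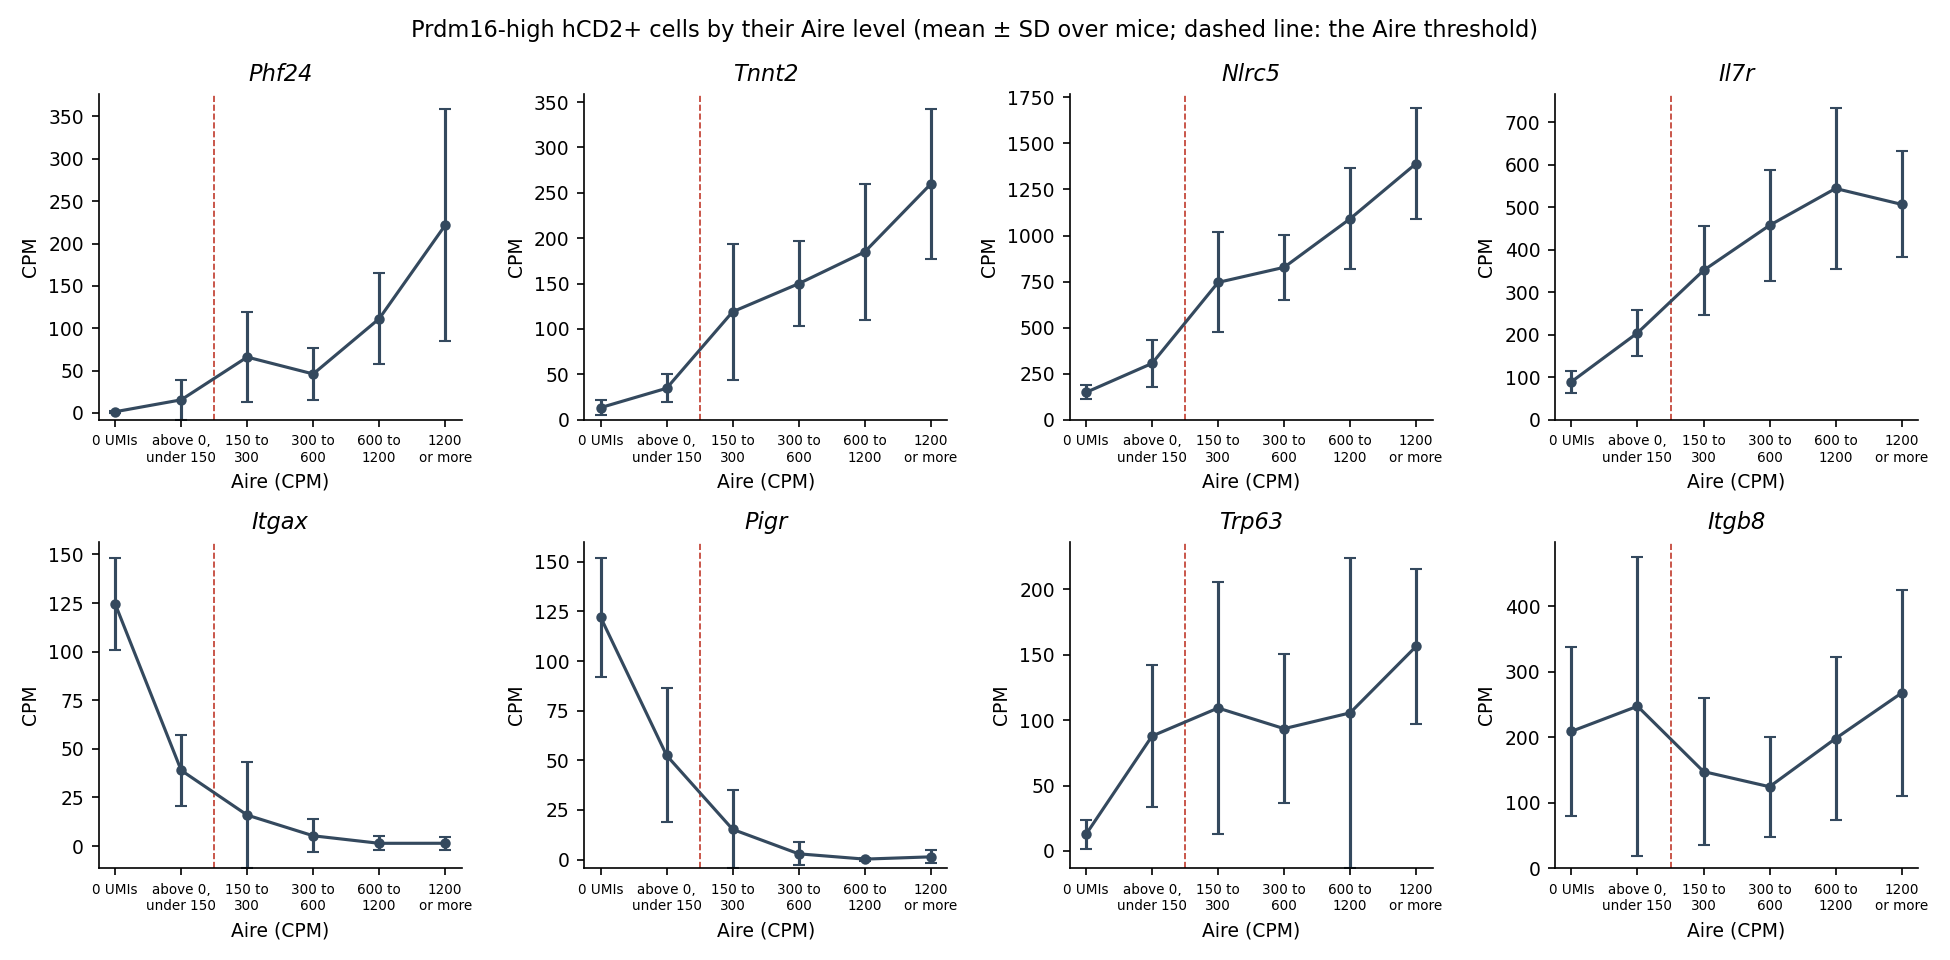
Mean level (CPM, ± SD over mice) of 8 genes in Prdm16-high hCD2+ cells grouped by their Aire level (x axis, CPM), with the Aire threshold as a dashed line. Nlrc5 and Tnnt2 climb with Aire, Itgax and Pigr fall from cells without Aire to near 0 above 300 CPM, and Itgb8 has no such order.

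For the tests, UMIs were summed per mouse and group and fitted with edgeR's quasi-likelihood test, and a gene was called at a Benjamini-Hochberg adjusted p under 0.05 over all genes tested. Fold changes are on the log2 scale ± SE, positive where the Prdm16+ Aire-high cells were higher, and use TMM scaling. Against all 842 Prdm16-high Aire-low cells 4847 of 8644 genes (56.1%) were called, 2453 higher (28.4%) and 2394 lower (27.7%). With library-size scaling alone the split was 1827 higher and 3438 lower and the median of all genes moved from -0.01 to -0.17. Against the Aire-low Ccr7-low cells 64.8% were called (31.4% higher, 33.4% lower), against the Aire-low Ccr7-high cells 37.6% (19.7%, 17.9%), against the Ccr7+ Fscn1+ cells 59.7% (31.2%, 28.4%) and against the Aire-high Prdm16-low cells 41.2% (21.2%, 20.0%). With so large a share of all genes called, a call by itself says little, and sizes and overlap are given beside it. The same holds for the counts of called genes in each list below, which stand against these shares.

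The mice of the compared groups did not overlap for 14.1%, 22.4%, 5.31%, 16.7% and 21.8% of the genes tested, in the same order of comparisons. The median log2 fold change of all genes lay between -0.04 and 0.01 in each of them. With library-size scaling alone it moved to -0.24 against the Aire-low Ccr7-low cells (1834 higher, 3568 lower, against 2418 and 2573) and to -0.16 against the Aire-high Prdm16-low cells (1193 higher, 1788 lower, against 1445 and 1363). These comparisons share the same Prdm16+ Aire-high libraries.

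Among the genes called higher than in the Prdm16-high Aire-low cells, the Ccr7+ Fscn1+ cells and the Aire-high Prdm16-low cells alike, 12 were named for having the largest values of their smallest log2 fold change of the 3. They were Npy1r, Asprv1, Sox5, Ldb2, Gulo, Tfap2a, Slco2a1, Cxcr5, Sned1, Cib3, Tnni1 and Plxna4os3.

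Asprv1, a protease of the outer skin that processes filaggrin (chr6:86628164-86629710, plus strand), was the most abundant of them in the Prdm16+ Aire-high cells, at 635 to 1407 CPM (median 1058). It was at 8.18 to 38.2 CPM (median 17.1) in Aire-low Ccr7-low, 18.6 to 410.1 CPM (median 138) in Aire-low Ccr7-high, 7.26 to 42.8 CPM (median 21.1) in Ccr7+ Fscn1+ and 2.62 to 35.8 CPM (median 11.5) in Aire-high Prdm16-low cells. No mouse of any of the 4 groups reached the lowest Prdm16+ Aire-high mouse. The log2 fold changes were 6.02 ± 0.17, 2.79 ± 0.30, 5.50 ± 0.19 and 6.43 ± 0.34 (adjusted p 1.4e-22, 2.5e-08, 8.9e-20 and 1.3e-11, higher in every mouse with both groups).

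Ldb2, an adaptor of LIM-domain transcription factors (chr5:44472132-44799680, minus strand), was at 541 to 1364 CPM (median 852) against 0 to 7.96 CPM (median 0.204) and 35.8 to 239.6 CPM (median 85.3) in the Aire-low Ccr7-low and Ccr7-high cells. Its log2 fold changes were 9.30 ± 0.29 and 3.14 ± 0.26, and 7.54 ± 0.45 and 3.90 ± 0.29 against the Ccr7+ Fscn1+ and Aire-high Prdm16-low cells, without overlap in any of the 4. Tnni1, troponin I of slow skeletal muscle (chr1:135779434-135810989, plus strand), was at 351 to 894 CPM (median 533), with log2 fold changes of 5.65 ± 0.23, 3.78 ± 0.28, 6.91 ± 0.27 and 2.86 ± 0.40 in the same order and again no overlap.

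The transcription factor genes Sox5 and Tfap2a (AP-2 alpha) were lower in level and also without overlap. Sox5 was at 22.5 to 103 CPM (median 54.0) and at means of 3.16, 3.61 and 1.62 CPM in the Aire-low Ccr7-low, Aire-low Ccr7-high and Ccr7+ Fscn1+ cells. Tfap2a was at 23.8 to 70.3 CPM (median 55.7) and at 3.42 and 9.26 CPM in the Aire-low Ccr7-low and Ccr7-high cells. The 4 mice with at least 10 Aire-high Prdm16-low cells held 0 UMIs of both, so that Sox5 was at least 21.7-fold and Tfap2a at least 20.3-fold higher against the 3 counts that 0 UMIs over these 4 mice allow. Among mice with fewer such cells, which entered no test, Sox5 was at 45.0 CPM in mouse 6 (6 cells) and at 14 CPM in mouse 7 (7 cells). Tfap2a was at 0 in the Ccr7+ Fscn1+ cells too (at least 303-fold).

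Among the remaining 7 genes, Npy1r (a neuropeptide Y receptor) was at 70.0 to 189 CPM (median 149), Sned1 (a matrix glycoprotein) at 162 to 335 CPM (median 229) and Gulo (the last enzyme of vitamin C synthesis) at 42.0 to 144 CPM (median 77.7). Cxcr5, the receptor for CXCL13 that guides cells to B cell follicles, was at 21.0 to 91.0 CPM (median 48.5) against means of 3.62, 8.94 and 5.05 CPM. Slco2a1 (a prostaglandin transporter) was at 12.6 to 50.7 CPM (median 32.1) and Cib3 at 16.6 to 67.2 CPM (median 43.3). For the antisense RNA Plxna4os3, at 49.6 to 201 CPM (median 99.5), the use of strand in the counting is not given in the sources used here, and its reads cannot be told apart from those of its sense partner. The 12 genes were picked for these differences, which are no independent support of one another.

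**Figure D4:**
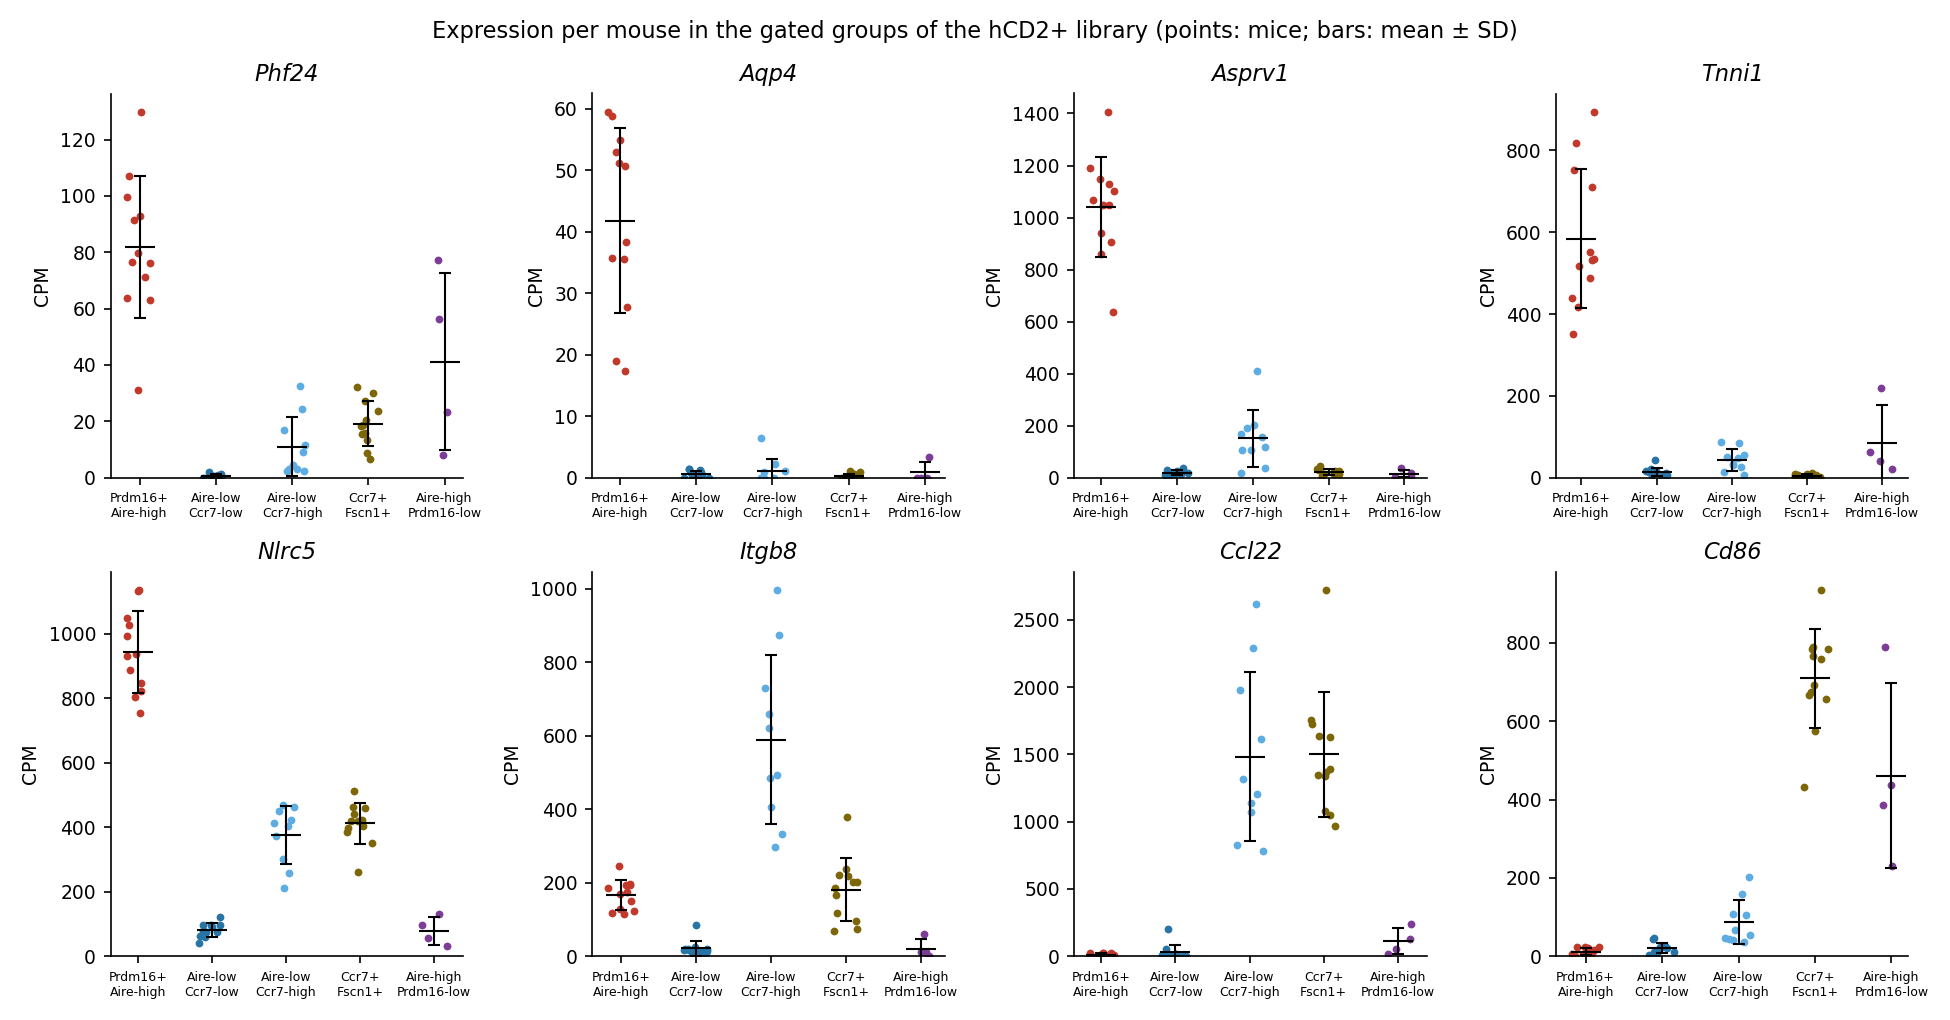
Level per mouse (CPM; points are mice, bars mean ± SD) of 8 genes in 5 groups of hCD2+ cells. Asprv1, Tnni1, Nlrc5 and Aqp4 are highest in the Prdm16+ Aire-high cells without overlap, Ccl22 and Cd86 are near 0 in them, and Itgb8 lies between the Aire-low Ccr7-low and Ccr7-high cells.

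The bases just upstream of a RefSeq start of the genes that chose the cells, and of Asprv1 and Sox5, are shown since these genes define or mark the cells. They are the 250 bases before the start in RefSeq (GRCm38.p6), read 5′ to 3′ on the gene's strand (for Asprv1 the 240 bases outside annotated exons), with matches to a kappaB motif (GGG, any 5 bases, then CC) or an AP-2 motif (GCCNNNGGC) on either strand in capitals. Aire lies at chr10:78043611-78043860 (minus strand), Prdm16 at chr4:154636874-154637123 (minus), Asprv1 at chr6:86627924-86628163 (plus) and Sox5 at chr6:143947107-143947356 (minus). The Sox5 stretch lies inside the gene as GENCODE places it (chr6:143828425-144781977, minus strand). It thus stands before an internal start and not before the outermost annotated one.
Aire: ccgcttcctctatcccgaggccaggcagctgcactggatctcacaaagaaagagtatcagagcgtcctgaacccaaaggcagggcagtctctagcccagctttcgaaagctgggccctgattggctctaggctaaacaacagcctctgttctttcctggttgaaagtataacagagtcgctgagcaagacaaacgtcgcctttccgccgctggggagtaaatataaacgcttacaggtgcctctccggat
Prdm16: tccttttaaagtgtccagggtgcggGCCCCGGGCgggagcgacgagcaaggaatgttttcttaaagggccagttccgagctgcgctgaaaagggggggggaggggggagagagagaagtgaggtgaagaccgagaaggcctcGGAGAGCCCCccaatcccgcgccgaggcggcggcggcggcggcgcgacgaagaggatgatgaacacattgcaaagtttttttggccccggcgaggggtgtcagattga
Asprv1: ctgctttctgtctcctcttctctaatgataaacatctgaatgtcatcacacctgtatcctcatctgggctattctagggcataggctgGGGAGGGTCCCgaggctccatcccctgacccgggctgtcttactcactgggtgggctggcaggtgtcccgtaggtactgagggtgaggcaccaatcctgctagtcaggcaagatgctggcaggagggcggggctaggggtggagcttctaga
Sox5: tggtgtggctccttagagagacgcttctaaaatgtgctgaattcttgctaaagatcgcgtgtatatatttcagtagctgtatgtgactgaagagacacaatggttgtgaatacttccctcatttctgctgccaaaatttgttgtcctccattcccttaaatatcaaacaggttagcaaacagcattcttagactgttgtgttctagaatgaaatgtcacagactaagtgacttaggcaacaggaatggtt
The capitals mark 1 AP-2 and 1 kappaB match for Prdm16 and 2 overlapping kappaB matches for Asprv1. Of the 12 genes 8 had an entry, and 4 of these 8 held a kappaB match and 1 an AP-2 match, where 45.8% and 13.7% of all 32851 promoters do. A match is a run of letters and not a measured binding site.

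Of 21 genes for partners of the Aire protein, 8 higher and 5 lower of 19 tested passed against all Prdm16-high Aire-low cells, 7 higher and 3 lower of 18 against the Ccr7+ Fscn1+ and 0 higher and 5 lower of 18 against the Aire-high Prdm16-low cells. The called share of the list was 68.4%, 55.6% and 27.8% in these comparisons, against 56.1%, 59.7% and 41.2% of all genes. In the first comparison the list's median was 0.09 and turned to -0.07 with library-size scaling alone. Atf7ip, which links MBD1 to histone methylation and takes part in Aire-dependent expression, was at 149 to 347 CPM (median 219.7) and 97.4 to 145 CPM (median 116) in the Prdm16+ Aire-high and the Prdm16-high Aire-low cells (log2 fold change 1.08 ± 0.11, adjusted p = 1.4e-09, 12 of 12 mice). The mice of these groups did not overlap. The deacetylase gene Sirt1, required for Aire function in the thymus, was higher too (139.6 ± 30.5 CPM against 87.8 ± 12.1 CPM, log2 fold change 0.83 ± 0.10, adjusted p = 4.7e-08). Against the Aire-high Prdm16-low cells Atf7ip and Sirt1 did not pass (0.48 ± 0.28 and 0.24 ± 0.19, adjusted p = 0.18 and 0.33), and Parp1 (-1.75 ± 0.27), Kmt2a (-0.62 ± 0.13) and Top2b (-0.75 ± 0.19) were lower.

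Of 30 listed antigens of other tissues whose expression Aire is known for in the thymus, 2 passed the filter on low counts, Fabp1 and Mbp. Fabp1, a fatty acid-binding protein of gut epithelium and liver, was at 141 to 269 CPM (median 199) in the Prdm16+ Aire-high cells and 179 to 404 CPM (median 286) in the Prdm16-high Aire-low cells, where it was higher (log2 fold change -0.35 ± 0.11, adjusted p = 0.0081). That call was lost with a stricter gate (-0.08) and against cells with 0 Aire UMIs (-0.17). In the Ccr7+ Fscn1+ cells it was at 0 to 12.3 CPM (median 0.941), and free RNA of the library held 66.8 CPM. Mbp, myelin basic protein, was at 256 to 374 CPM (median 314) against 229.6 to 316 CPM (median 264) (log2 fold change 0.37 ± 0.07, adjusted p = 3.9e-05). It was not higher throughout, since against the Ccr7+ Fscn1+ cells Fabp1 was called higher and Mbp lower. Of the 2 genes, 0 higher and 1 lower passed against the Aire-low Ccr7-high cells. Against the Aire-low Ccr7-low cells 1 higher and 1 lower passed, and against the Aire-high Prdm16-low cells 2 higher and 0 lower. All other listed genes that the files hold were too low to test.

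MHC class I genes were higher than in the Aire-low Ccr7-low cells and lower than in the Ccr7+ Fscn1+ cells, while their transactivator Nlrc5 was above both. Nlrc5 was at 753 to 1136 CPM (median 935) in the Prdm16+ Aire-high cells. It was at 41.3 to 120.0 CPM (median 77.2) and 212 to 467 CPM (median 409) in the Aire-low Ccr7-low and Ccr7-high cells, 260.3 to 513 CPM (median 420.3) in the Ccr7+ Fscn1+ and 31.5 to 129.9 CPM (median 77.0) in the Aire-high Prdm16-low cells. The lowest Prdm16+ Aire-high mouse was above every mouse of all 4 groups. The log2 fold changes were 3.76 ± 0.12, 1.30 ± 0.12, 1.15 ± 0.09 and 3.73 ± 0.25, with adjusted p of 2.6e-21, 2.6e-09, 6.7e-12 and 1.7e-10.

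Of the 18 class I presentation genes tested, 14 higher and 0 lower of 18 passed against the Aire-low Ccr7-low cells (median 0.77) and 13 higher and 2 lower of 18 against the Aire-high Prdm16-low cells (median 1.30). The light chain gene B2m was at 4147 to 5687 CPM (median 4749.8) against 2098 to 2644 CPM (median 2444) in the first of these (log2 fold change 1.17 ± 0.06, adjusted p = 4.5e-17). Against the Ccr7+ Fscn1+ cells the counts were 2 higher and 16 lower of 18 (median -0.58). There the immunoproteasome gene Psmb8 was at 296 to 465 CPM (median 355) and 517 to 813 CPM (median 712) (log2 fold change -0.95 ± 0.09, adjusted p = 5.4e-10) and the peptide transporter gene Tap2 at 84.3 to 130.0 CPM (median 114) and 153 to 259 CPM (median 180.0) (log2 fold change -0.82 ± 0.10, adjusted p = 2.7e-08), each without overlap. Nlrc5 and the chaperone gene Calr were the 2 genes that were higher. Against the Aire-low Ccr7-high cells the counts were 2 higher and 7 lower of 18.

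MHC class II genes were higher than in the Ccr7+ Fscn1+ cells. Of 16 tested, 10 higher and 2 lower of 16 passed there (median 0.91) and 10 higher and 1 lower of 16 against the Aire-high Prdm16-low cells. H2-Aa was at 4787 to 6160.0 CPM (median 5380.1) against 1732 to 3140.5 CPM (median 2661) in the Ccr7+ Fscn1+ cells (log2 fold change 1.03 ± 0.08, adjusted p = 2.6e-12), and their ranges did not overlap. Ciita, the transactivator of class II genes, was at 208 to 317 CPM (median 249) against 31.7 to 146 CPM (median 81.0) (log2 fold change 1.60 ± 0.16, adjusted p = 8.7e-10). Against all Prdm16-high Aire-low cells Ciita did not pass (0.01 ± 0.07, adjusted p = 0.9) and the list gave 8 higher and 4 lower of 18 tested.

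Most costimulatory ligand genes were lower than in the other Ccr7-high groups. Of 9 costimulation and checkpoint ligand genes tested against the Ccr7+ Fscn1+ cells, 1 higher and 7 lower of 9 passed (median -2.87), and 1 higher and 6 lower of 8 against the Aire-low Ccr7-high cells (median -1.27). Against the Aire-low Ccr7-low cells the counts went the other way, with 4 higher and 1 lower of 8 (median 0.31), and against the Aire-high Prdm16-low cells they were 3 higher and 5 lower of 8 (median -1.99). Cd86, a ligand of CD28, was at 0 to 24.0 CPM (median 8.96). It was at 36.7 to 201 CPM (median 60.6) in the Aire-low Ccr7-high, 431 to 935 CPM (median 725) in the Ccr7+ Fscn1+ and 230.0 to 789 CPM (median 412) in the Aire-high Prdm16-low cells, none of which overlapped with the Prdm16+ Aire-high cells. The log2 fold changes were -2.96 ± 0.39, -6.05 ± 0.25 and -5.26 ± 0.37 (adjusted p = 9.5e-07, 5.5e-18 and 3.5e-10).

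Cd80, the other CD28 ligand, was at 16.2 to 74.6 CPM (median 46.5) against 225 to 427 CPM (median 347) in Ccr7+ Fscn1+ cells (log2 fold change -2.87 ± 0.14, adjusted p = 2.2e-16) and 419 to 601 CPM (median 515) in Aire-high Prdm16-low cells. Cd274, which encodes PD-L1, was at 11.3 to 47.6 CPM (median 33.0) against 97.1 to 277 CPM (median 173) in Aire-low Ccr7-high cells (log2 fold change -2.54 ± 0.22, adjusted p = 6.2e-10) and 483 to 899 CPM (median 634) in Ccr7+ Fscn1+ cells (log2 fold change -4.42 ± 0.17, adjusted p = 5.5e-19). Icosl, the ligand of ICOS, was the exception and the 1 listed gene higher against each of these 2 groups. It was at 406 to 622 CPM (median 465) in the Prdm16+ Aire-high cells, and at 89.5 to 152 CPM (median 124), 168 to 303 CPM (median 245), 70.8 to 206 CPM (median 143) and 266 to 374 CPM (median 320.4) in the Aire-low Ccr7-low, Aire-low Ccr7-high, Ccr7+ Fscn1+ and Aire-high Prdm16-low cells, without overlap (2.17 ± 0.09, 0.95 ± 0.09, 1.69 ± 0.13 and 0.69 ± 0.14).

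In the thymus RANK, CD40 and the lymphotoxin receptor, of the TNF receptor family, drive Aire through non-canonical NF-kB signalling. OX40, 4-1BB and RANK transcripts were higher in the Prdm16+ Aire-high cells than in the Prdm16-high Aire-low cells. Of 20 genes of the list tested, 15 higher and 3 lower of 20 passed against the Aire-low Ccr7-low cells (median 0.74), and against the Aire-low Ccr7-high and Ccr7+ Fscn1+ cells 7 higher and 7 lower of 19 and 10 higher and 7 lower of 19. Tnfrsf4 (OX40) was at 312 to 613 CPM (median 423) against 0 to 12.8 CPM (median 0.973), 64.2 to 200.2 CPM (median 129) and 122 to 258 CPM (median 178) in these groups, with no overlap (7.87 ± 0.25, 1.76 ± 0.14 and 1.27 ± 0.11). Tnfrsf9 (4-1BB) followed the same order, at 214 to 441 CPM (median 303) against 2.31 to 13.1 CPM (median 7.10), 63.0 to 142 CPM (median 103) and 81.3 to 117 CPM (median 103). Tnfrsf11a, the receptor RANK, was at 198 to 342 CPM (median 280.0) against 79.5 to 145 CPM (median 91.8) in all Prdm16-high Aire-low cells (log2 fold change 1.63 ± 0.11, adjusted p = 2.1e-13, no overlap). Its call against the Ccr7+ Fscn1+ cells (0.32 ± 0.10, adjusted p = 0.0064) was lost with a stricter gate (0.19). Of the list, 90%, 73.68% and 89.47% were called against the Aire-low Ccr7-low, Aire-low Ccr7-high and Ccr7+ Fscn1+ cells. Of all genes 64.8%, 37.6% and 59.7% were.

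Within the same list other members went the other way. Cd40, another receptor that acts through this pathway, was at 99.6 to 168 CPM (median 131) against 216 to 555 CPM (median 287) in the Aire-low Ccr7-high and 379.8 to 839 CPM (median 543) in the Ccr7+ Fscn1+ cells (-1.41 ± 0.16 and -2.14 ± 0.12), without overlap. Nfkbia, the inhibitor IkB-alpha, was lower than in each of the 4 groups (-1.08 ± 0.07, -0.94 ± 0.09, -0.93 ± 0.11 and -1.05 ± 0.10), again without overlap. Birc2, a brake of non-canonical signalling, was higher than in each of them (1.81 ± 0.06, 0.41 ± 0.08, 1.25 ± 0.06 and 0.82 ± 0.09). Ltb, the ligand lymphotoxin beta, was at 151 to 439 CPM (median 239) against 1314 to 1553 CPM (median 1413) in the Aire-low Ccr7-low cells (log2 fold change -2.26 ± 0.11, adjusted p = 4.7e-17).

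For TGF-beta and its activation the answer depended on which Prdm16-high cells were compared. Itgb8 (chr12:119158022-119238802, minus strand) was at 113 to 244 CPM (median 171) in the Prdm16+ Aire-high cells, at 8.03 to 84.3 CPM (median 16.3) in the Aire-low Ccr7-low and at 297 to 995 CPM (median 557) in the Aire-low Ccr7-high cells. It was higher than in the first (log2 fold change 3.09 ± 0.27, adjusted p = 1.8e-11, 12 of 12 mice) and lower than in the second (log2 fold change -1.87 ± 0.19, adjusted p = 1.1e-08, lower in 10 of 10 mice), and neither overlapped. Against all Prdm16-high Aire-low cells together Itgb8 did not pass (log2 fold change -0.25 ± 0.25, adjusted p = 0.42).

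Nor did Itgb8 pass against the Ccr7+ Fscn1+ cells of the hCD2+ sort, which held 67.0 to 377 CPM (median 194) (log2 fold change -0.17 ± 0.21, adjusted p = 0.51). Against the Ccr7+ Fscn1+ cells of the hCD2- sort, which held 90.9 CPM pooled, it was higher instead (0.84, adjusted p = 0.0074). That alternative run sets one library against the other, so that the cell group cannot be told apart from the sort and the library there. Itgav, the alpha-v chain, was at 145 to 329.9 CPM (median 202), with 1.71 ± 0.15 against the Aire-low Ccr7-low and -0.99 ± 0.15 against the Aire-low Ccr7-high cells (adjusted p = 2.7e-11 and 9.3e-06). Smad3, which carries the TGF-beta signal to the nucleus, was higher than in all Prdm16-high Aire-low cells (120.4 ± 32.0 CPM against 46.8 ± 8.80 CPM, log2 fold change 1.52 ± 0.13, adjusted p = 6.8e-11) and than in the Ccr7+ Fscn1+ cells (1.89 ± 0.19). Of the list, 4 higher and 3 lower of 12 tested passed against the Aire-low Ccr7-low and 1 higher and 4 lower of 12 against the Aire-low Ccr7-high cells. These were 58.3% and 41.7% of the list, near the 64.8% and 37.6% of all genes called there.

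Retinoid genes were mixed, with 3 higher and 3 lower of 7 against the Aire-low Ccr7-low and 3 higher and 2 lower of 7 against the Ccr7+ Fscn1+ cells. The called share of the list was 85.7% and 71.4%, against 64.8% and 59.7% of all genes. Aldh1a2, which makes retinoic acid, was at 50.1 to 126 CPM (median 69.0), between the Aire-low Ccr7-low (8.24 to 32.1 CPM, median 15.0) and the Ccr7+ Fscn1+ cells (152 to 371 CPM, median 212). It differed from both without overlap (2.38 ± 0.18 and -1.67 ± 0.15). The retinoic acid receptor gene Rarg was at 69.3 to 119.9 CPM (median 109.7) against 10.4 to 54.2 CPM (median 32.9) in Aire-low Ccr7-high (log2 fold change 1.61 ± 0.17, adjusted p = 2.5e-08) and 2.49 to 17.6 CPM (median 8.68) in Ccr7+ Fscn1+ cells (log2 fold change 3.41 ± 0.19, adjusted p = 2.4e-15).

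Among enzymes and cytokines tied to tolerance, 5 higher and 0 lower of 6 tested passed against the Aire-low Ccr7-low and 2 higher and 5 lower of 8 against the Ccr7+ Fscn1+ cells (median 2.13 in the first). Ido1, which degrades tryptophan, was at a low 17.7 to 44.8 CPM (median 29.5), above the 0 to 9.55 CPM (median 4.09) of the Aire-low Ccr7-low cells (log2 fold change 3.09 ± 0.26, adjusted p = 1.4e-11). Tdh, a threonine dehydrogenase, was higher than in all 4 groups without overlap (305 ± 79.1 CPM, with 1.74 ± 0.12, 1.73 ± 0.18, 5.18 ± 0.24 and 5.67 ± 0.40). Il12b, the shared chain of interleukins 12 and 23, was at 0 to 4.43 CPM (median 0) against 57.9 to 802 CPM (median 499) in the Ccr7+ Fscn1+ cells (log2 fold change -8.59 ± 0.49, adjusted p = 5e-15), and Ebi3 was lower there as well (-5.36 ± 0.23).

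Of the chemokine and chemokine receptor genes, 4 higher and 2 lower of 8 passed against the Aire-low Ccr7-low, 1 higher and 4 lower of 10 against the Aire-low Ccr7-high and 4 higher and 4 lower of 11 against the Ccr7+ Fscn1+ cells. The called share of the list was 75%, 50% and 72.7%, against 64.8%, 37.6% and 59.7% of all genes. Ccl22, a ligand of CCR4 on regulatory T cells, was at 0 to 25.9 CPM (median 7.42), against 781 to 2621 CPM (median 1263) in the Aire-low Ccr7-high and 968 to 2719 CPM (median 1383) in the Ccr7+ Fscn1+ cells (log2 fold change -7.09 ± 0.31, adjusted p = 1.9e-15 and log2 fold change -7.14 ± 0.27, adjusted p = 6.6e-19). The highest Prdm16+ Aire-high mouse was far below the lowest mouse of either group, although Ccr7 is high in each. Ccl5 was at 0 to 104 CPM (median 14.7) against 106 to 759 CPM (median 389.6) and 2669 to 4820.4 CPM (median 3306) (-4.17 ± 0.37 and -7.29 ± 0.29). Cxcl16, the ligand of CXCR6, was not low: it was at 420.3 to 557 CPM (median 485) against 92.8 to 153 CPM (median 113) in Aire-low Ccr7-low cells (log2 fold change 2.28 ± 0.08, adjusted p = 3.2e-21), and did not pass against the Aire-low Ccr7-high or Ccr7+ Fscn1+ cells (adjusted p = 0.15 and 0.75). The scavenger receptor gene Ackr3 was at 315 to 642 CPM (median 451) against 0 to 5.19 CPM (median 0) in the Ccr7+ Fscn1+ cells (log2 fold change 8.44 ± 0.29, adjusted p = 7.8e-20).

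The driver Gm38411 and the reporter hCD2 were lower than in the Aire-low Ccr7-low cells (-1.49 ± 0.12 and -1.98 ± 0.14, adjusted p = 4.4e-12 and 2.7e-13). Of 17 type 3 lymphoid regulators 6 higher and 8 lower of 17 passed there, and 11 higher and 3 lower of 15 against the Ccr7+ Fscn1+ cells. These were 82.35% and 93.33% of the list, beside 64.8% and 59.7% of all genes.

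Il7r and Maf, of the same list, were higher than in each of these groups. Il7r was at 332 to 603 CPM (median 471) against 28.5 to 102 CPM (median 61.0), 168 to 266 CPM (median 209.6) and 172 to 299.6 CPM (median 214) in the Aire-low Ccr7-low, Aire-low Ccr7-high and Ccr7+ Fscn1+ cells (3.14 ± 0.17, 1.10 ± 0.11 and 0.99 ± 0.10), without overlap. Maf was at 23.1 to 98.8 CPM (median 63.3) against means of 15.7, 9.67 and 6.89 CPM (2.32 ± 0.26, 2.92 ± 0.37 and 3.40 ± 0.32). Against the Aire-high Prdm16-low cells neither Il7r nor Maf passed (adjusted p = 0.09 and 0.97), while Tox was lower (0 to 37.1 CPM, median 5.49 against 76.6 to 317 CPM, median 255, log2 fold change -4.54 ± 0.48, adjusted p = 1.4e-07). Tcf7, a factor of lymphoid development, was higher than in Aire-low Ccr7-low cells (1.69 ± 0.07) and lower than in Aire-high Prdm16-low cells (-0.54 ± 0.10).

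Of 20 dendritic cell regulators, 11 higher and 4 lower of 20 passed against the Aire-low Ccr7-low and 5 higher and 7 lower of 20 against the Aire-low Ccr7-high cells. Relb, a non-canonical NF-kB subunit, was at 837 to 1183 CPM (median 1027) against 373 to 521 CPM (median 458) in the first (log2 fold change 1.34 ± 0.06, adjusted p = 1.3e-17, no overlap). Spi1, which encodes PU.1, was lower than in both (-0.82 ± 0.07 and -0.49 ± 0.09). Irf4 and the cytokine receptor gene Flt3 were lower than in the Ccr7+ Fscn1+ cells (-2.45 ± 0.20 and -2.10 ± 0.11), with Flt3 at 71.1 to 159 CPM (median 112) against 327 to 583 CPM (median 471). Irf8 was high against the Aire-high Prdm16-low cells (435 ± 69.2 CPM against 54.9 ± 22.6 CPM, log2 fold change 3.07 ± 0.21, adjusted p = 2.4e-10), and so was Spi1 (1.15 ± 0.14). Of the list, 75% and 60% were called against the Aire-low Ccr7-low and Aire-low Ccr7-high cells, beside 64.8% and 37.6% of all genes.

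Trp63, a p53 relative of epithelial stem cells and thymic epithelium (chr16:25683763-25892102, plus strand), was at 39.9 to 189 CPM (median 107) and thus among the epithelial transcripts these cells carry. It was higher than in the Aire-low Ccr7-low, Aire-low Ccr7-high and Ccr7+ Fscn1+ cells (2.36 ± 0.28, 2.87 ± 0.51 and 3.42 ± 0.42), with overlap between mice in each. In the Aire-high Prdm16-low cells it was at 107 to 259.8 CPM (median 176) and the difference did not pass (log2 fold change -0.57 ± 0.28, adjusted p = 0.11). Epcam, an epithelial adhesion molecule among the epithelial markers listed, was at 171 to 376 CPM (median 212). Other Prdm16-high cells carried it too, at 176 ± 29.1 CPM (SD) in those with 0 Aire UMIs. The epithelial marker list summed to 353 to 606 CPM (median 428) in the Prdm16+ Aire-high cells. It summed to 382 to 529 CPM (median 414) in the Aire-low Ccr7-high and 283 to 378 CPM (median 300) in the Aire-low Ccr7-low cells. From the Aire-high Prdm16-low cells Epcam was nearly absent (0 to 3.33 CPM, median 0). Fezf2, the other regulator of tissue antigens in the thymus, was at 0.

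Genes of cell division were lower than in the Aire-low Ccr7-low cells. None of 9 tested was higher and 8 were lower (median -1.70), among them Mki67 at 19.2 ± 7.55 CPM against 42.3 to 421 CPM (median 135) (log2 fold change -2.63 ± 0.36, adjusted p = 1.7e-07). Against the Aire-low Ccr7-high cells 0 higher and 1 lower of 5 passed, and Mki67 did not (adjusted p = 0.14). Immediate early and heat shock genes, which respond to handling, were also lower, with 2 higher and 9 lower of 15 against the Aire-low Ccr7-low and 1 higher and 9 lower of 15 against the Aire-low Ccr7-high cells. Jun was at 55.1 to 408 CPM (median 218) against 298 to 1378 CPM (median 811) in the first (log2 fold change -1.71 ± 0.25, adjusted p = 7e-07) and Atf3 went against the list there (1.59 ± 0.11). The part of handling in the other results was not tested.

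Of the cytoskeleton and migration genes, 13 higher and 5 lower of 20 passed against the Aire-low Ccr7-low and 3 higher and 16 lower of 20 against the Ccr7+ Fscn1+ cells (medians 0.53 and -0.64). The tetraspanin gene Cd63 was at 923 to 1653 CPM (median 1196) against 19.7 to 69.1 CPM (median 35.5) in the first (log2 fold change 5.09 ± 0.17, adjusted p = 3.2e-21). Marcks, an actin regulator, was at 593 ± 89.1 CPM against 1462 ± 123 CPM in the second (log2 fold change -1.35 ± 0.08, adjusted p = 4.4e-15). Contractile and channel genes gave 4 higher and 4 lower of 8, 4 higher and 2 lower of 8, 5 higher and 4 lower of 9 and 3 higher and 1 lower of 9 against the 4 groups. Beside Tnni1, the calcium release channel gene Ryr3 was higher than in the Aire-low Ccr7-high and Ccr7+ Fscn1+ cells (2.54 ± 0.35 and 2.55 ± 0.30), while Tpm1 was lower (-0.85 ± 0.15 and -1.39 ± 0.11). Of the contractile and channel list 100%, 75%, 100% and 44.44% were called against the 4 groups, beside 64.8%, 37.6%, 59.7% and 41.2% of all genes. Of the cytoskeleton list 90% and 95% were called against the Aire-low Ccr7-low and Ccr7+ Fscn1+ cells.

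Interferon-stimulated genes moved both ways. Against all Prdm16-high Aire-low cells 3 higher and 6 lower of 11 tested passed (median -0.60, against -0.01 for all genes). Of the list, 4 higher and 3 lower of 9, 2 higher and 2 lower of 8, 3 higher and 4 lower of 8 and 4 higher and 1 lower of 9 tested passed against the other 4 groups (medians -0.20, -0.04, -0.33 and 0.94). Bst2 was at 577 to 936 CPM (median 697) and higher than in each without overlap (1.03 ± 0.09, 0.78 ± 0.11, 2.73 ± 0.14 and 3.09 ± 0.19). Isg15 was at 6.48 to 53.5 CPM (median 26.1) and lower than in the Aire-low Ccr7-high and Ccr7+ Fscn1+ cells (-2.81 ± 0.29 and -3.91 ± 0.33). Of the interferon list 81.82% were called against all Prdm16-high Aire-low cells, beside 56.1% of all genes. Against the other 4 groups 77.78%, 50%, 87.5% and 55.56% were, beside 64.8%, 37.6%, 59.7% and 41.2% of all genes. Of apoptosis and survival genes 7 higher and 4 lower of 16, 4 higher and 3 lower of 15, 4 higher and 7 lower of 15 and 4 higher and 4 lower of 16 passed. The called share of that list was 68.8%, 46.7%, 73.3% and 50%, against 64.8%, 37.6%, 59.7% and 41.2% of all genes. The proapoptotic gene Bbc3 (PUMA) was at 12.8 to 52.0 CPM (median 33.9) against 11.8 to 24.8 CPM (median 14.3) in the Aire-low Ccr7-low cells (log2 fold change 1.28 ± 0.19, adjusted p = 9.2e-07).

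**Figure D5:**
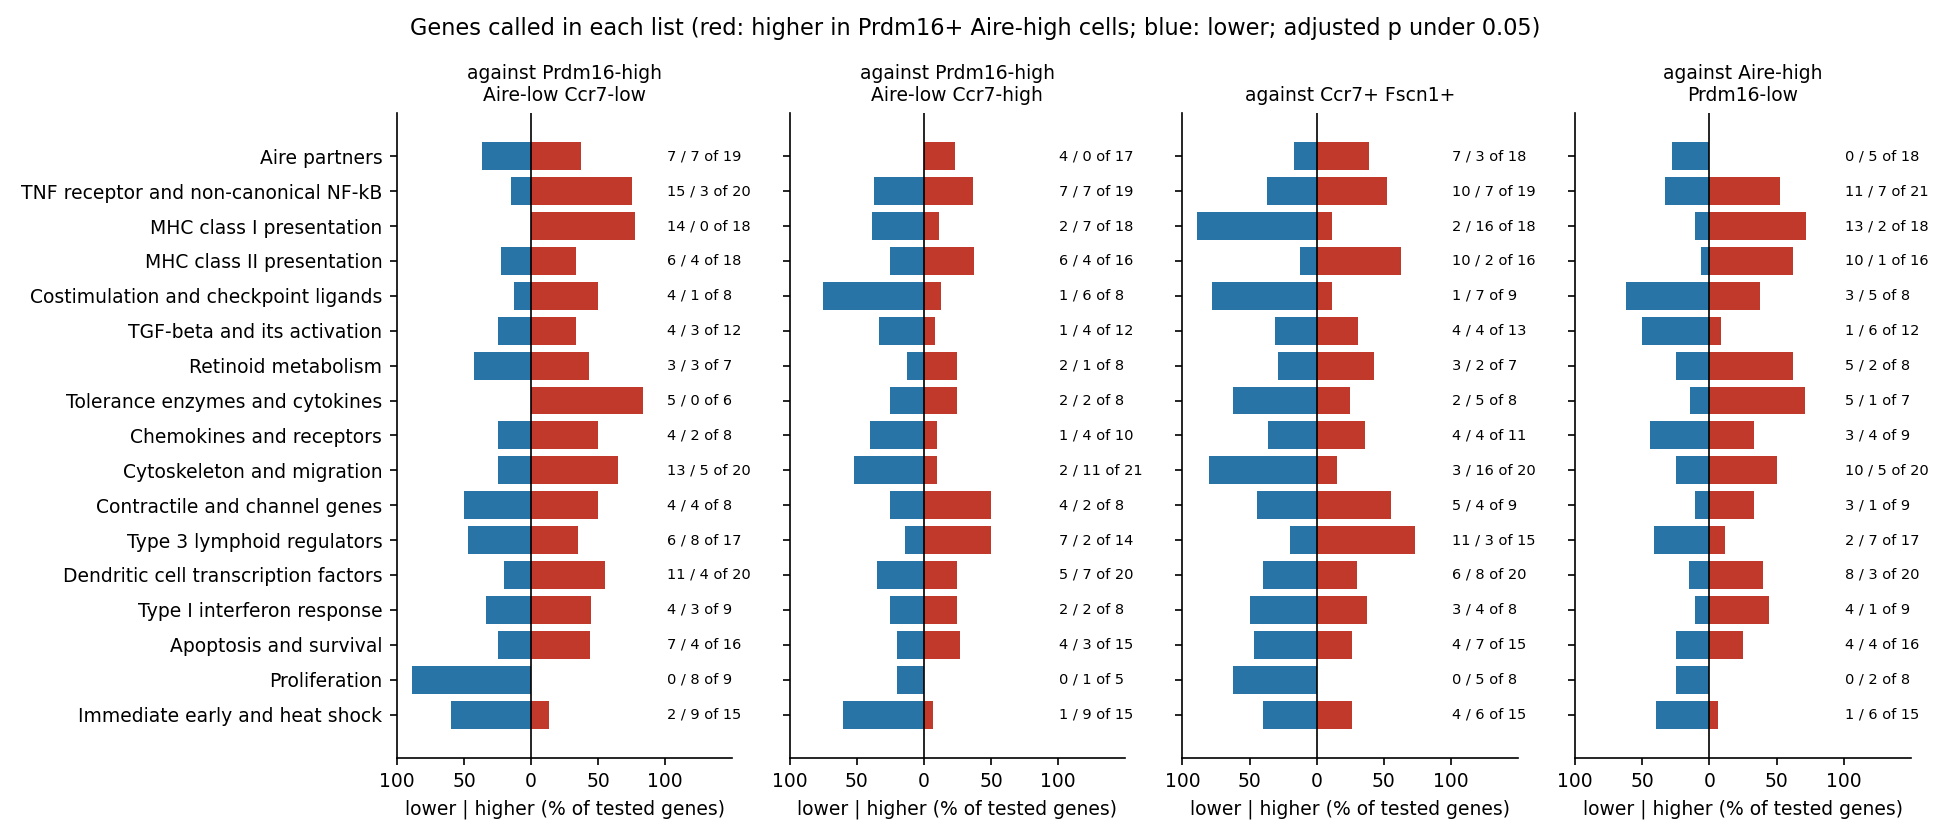
Percent of the tested genes of each list that were higher (red, right) or lower (blue, left) in the Prdm16+ Aire-high cells against 4 groups of hCD2+ cells, with counts beside the bars. Class I genes are mostly higher against the Aire-low Ccr7-low cells (14 of 18) and mostly lower against the Ccr7+ Fscn1+ cells (16 of 18).

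Beyond the lists, single genes with some of the largest changes against all Prdm16-high Aire-low cells follow, where 56.1% of all genes were called. The axon guidance receptor gene Unc5c was at 339 to 696 CPM (median 508) against 13.8 to 75.8 CPM (median 33.5) (log2 fold change 3.94 ± 0.21, adjusted p = 1.8e-15), and Lingo1, a neuronal surface protein gene, at 179.8 to 406 CPM (median 331) against 11.8 to 38.8 CPM (median 27.0) (log2 fold change 3.78 ± 0.16, adjusted p = 5.1e-17). Syt1, a synaptic vesicle protein gene, was higher too (4.58 ± 0.39) but at 1201 to 1735 CPM (median 1295) in the Aire-high Prdm16-low cells, far above the 20.8 to 301 CPM (median 139) of the Prdm16+ Aire-high cells (log2 fold change -3.09 ± 0.32, adjusted p = 1.2e-07). On the other side, the scavenger receptor gene Stab2 was at 0 to 20.2 CPM (median 4.45) against 119 to 407 CPM (median 170.5) (log2 fold change -4.31 ± 0.30, adjusted p = 7.1e-13). Itgax and Pigr fell with it (-3.91 ± 0.25 and -3.97 ± 0.30), all without overlap.

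The Aire-high Prdm16-low cells, which share the Aire threshold, differed in other ways. They held 202 to 386 CPM (median 284) of Prg2, 219.8 to 349 CPM (median 284) of Ncam1 and 40.9 to 272 CPM (median 208) of the potassium channel gene Kcnma1 over their 4 mice. In the Prdm16+ Aire-high cells these genes had medians of 4.02, 0 and 0 CPM (-5.40 ± 0.39, -5.18 ± 0.50 and -7.19 ± 0.49, without overlap). Conversely, Krt8 (at least 20.0-fold), Grifin (at least 36.1-fold) and Nrip3 (at least 75.6-fold) had 0 UMIs in these 4 mice and were at 23.9 to 75.6 CPM (median 56.4), 52.5 to 172 CPM (median 98.5) and 29.2 to 403 CPM (median 191) in the Prdm16+ Aire-high cells. Of these, Grifin was no higher than in the Prdm16-high Aire-low cells (69.7 to 163 CPM, median 105, log2 fold change 0.04 ± 0.15, adjusted p = 0.84).

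The 13 Prdm16+ Aire-high cells of the hCD2- sort, pooled over mice, carried the given markers too, with Phf24, Tnnt2 and Aqp4 above and Ccr7 inside the range of the hCD2+ mice. Phf24 was at 223 CPM (95% Poisson interval 172 to 285, counting error only), Tnnt2 at 209 CPM (159.7 to 269), Aqp4 at 105 CPM (70.6 to 149) and Ccr7 at 1852 CPM (1698 to 2016). Itgb8 was at 202 CPM (153.6 to 262), and Itgax had 0 UMIs, which allows up to 12.9 CPM. The 12 mice of the hCD2+ sort were at 113 to 244 CPM (median 171) for Itgb8. With 13 cells in 1 library no test between the sorts was made for these levels.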

How the data were processed

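The deposited gene-by-cell counts are whole UMI counts per gene and cell, made by the authors with 10x 3′ chemistry and Cell Ranger 8.0.1 on mm10, per the submitters' processing notes, with 4 added features (iCre, Cre, hCD2 and tdTomato). The authors' deposited table assigns each cell to 1 of 12 hashtags, and cells it calls multiplet or unassigned were left out. Doublets within a mouse remain, since no doublet caller was run. The use of introns and of strand in the counting is not given in the sources used here.

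Cells needed 500 genes, at most 10% mitochondrial UMIs and 5000 UMIs, which left 5964 of 7415 hCD2+ and 4333 of 4907 hCD2- cells with 1 hashtag. The Cd3e and Cd3d limit removed 0 cells. Comparison cells were Prdm16-high Aire-low (Prdm16 at least 500 and Aire under 150 CPM), Aire-high Prdm16-low (Aire at least 150 and Prdm16 under 100 CPM) and Ccr7+ Fscn1+ (both at least 300 CPM). UMIs were summed per mouse and group where a mouse had at least 10 cells, and tested with edgeR 4.0.16 (quasi-likelihood, TMM, filterByExpr) under R 4.3.3, with p adjusted over all genes tested. DESeq2 1.42.0 was an alternative, as were library-size scaling, no filter on low counts, cells thinned to 5000 UMIs, a stricter gate (Prdm16 1000 CPM, Aire 300 CPM, 3 UMIs each), cells of any depth, a replicate block and leaving out mice. Levels in CPM are of the library total, so a fold change need not equal their ratio.

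The groups come from the same mice, so the mouse pairs them. The correlation of their deviations from the group mean averaged 0.108, 0.098 and 0.0915 within a mouse against Prdm16-high Aire-low, Aire-high Prdm16-low and Ccr7+ Fscn1+ cells, and -0.00961, -0.0325 and -0.00838 between mice.

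The cells and the gene lists were chosen with earlier results of these data known. Named genes were a fixed set of regulators, receptors and ligands, up to 4 called genes of smallest adjusted p per list with up to 2 against its direction, the 12 (or 8) largest changes each way among genes whose mean log2 CPM was 5 or more and whose direction held in all but 1 mouse, and the 12 genes called higher in all 3 main comparisons whose smallest log2 fold change of the 3 was largest. Genes of the gates, the given markers, predicted models, ribosomal, mitochondrial, immunoglobulin, T cell receptor, hemoglobin and sex-linked marker genes were left out of these rankings. Gene coordinates are from GENCODE (mm10), and promoters are from RefSeq (GRCm38.p6). Some genes of the lists are not reported here.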

Additional observations from a re-analysis of the deposited data

Results flagged for a closer look

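Of 68 sets of mouse levels of named genes in the groups of 4 and 10 mice, 6 held 1 mouse far from the others, where chance gives about 1 in 20. Both cases among the Aire-high Prdm16-low cells were mouse 1, with 862.8 CPM of Ccr7 (the other 3 mice 219.2 to 255.6 CPM) and 66.62 CPM of Itgax (0 to 10.5 CPM). Among the Aire-low Ccr7-high cells they were mouse 3 with 83.58 CPM of Trp63 (the others 0 to 40.11 CPM), mouse 5 with 33.45 CPM of Ctnna3 (0 to 10.11 CPM), mouse 7 with 50.14 CPM of Gal (0 to 19.29 CPM) and mouse 9 with 248.5 CPM of Selenom (83.67 to 156.4 CPM). Among the hCD2+ cells left out for their hashtag, 28 of 734 multiplets and 4 of 130 unassigned cells passed the Prdm16 and Aire thresholds.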

How the results depend on the processing

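The share of Prdm16+ Aire-high cells stayed higher in the hCD2+ sort under each alternative run, with differences of 4.37 percentage points as chosen, 2.38 with the stricter gate, 3.64 with cells of any depth and 4.33 after thinning. Thinning to 5000 UMIs lowered the number of genes called from 4847 to 1976 (Prdm16-high Aire-low), 2808 to 999 (Aire-high Prdm16-low), 4216 to 1605 (Ccr7+ Fscn1+), 4991 to 1890 (Aire-low Ccr7-low) and 2541 to 811 (Aire-low Ccr7-high) with fewer genes tested (3756, 2215, 2735, 2982 and 2267), so that the share called moved little, to 52.6%, 45.1%, 58.7%, 63.4% and 35.8%. With no filter on low counts 6559 were called against Ccr7+ Fscn1+ cells. The replicate block, which pairs the groups by mouse, gave 4642, 2114, 4132, 4918 and 2209 in the same order and changed 15 calls of named genes, among them H2-Ab1 and Tnni2 against the Aire-low Ccr7-high cells. Leaving out each mouse of the Aire-high Prdm16-low cells gave 2428 to 2671. With only Prdm16+ Aire-high cells of at least 1000 CPM of Ccr7, 2252 of 6070 genes (37.1%) were called against the Aire-low Ccr7-high cells. Among the named genes there, 98 values kept direction and call, 6 lost the call and 2 gained it. With Ccr7+ Fscn1+ cells of the hCD2- sort, Itgb8 turned from -0.17 to 0.838 (adjusted p = 0.0074). Nrros turned from 0.35 to -0.16 and Spi1 from 0.27 to -0.0533, neither of which passed (adjusted p = 0.30 and 0.53). The cause was not tested. Of 4919 values of named genes under an alternative, 4778 kept direction and call, 123 lost the call, 15 gained it and 3 reversed. Low depth limits genes near 1 UMI per cell, and the comparison with the Aire-high Prdm16-low cells rests on 4 mice.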
